A study of Mus musculus with 15 samples.

Results

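Small nucleolar RNAs (snoRNAs) and the noncoding transcripts that host some of them were followed in mouse kidneys after ureteral obstruction. The members are all rows of the deposited count table whose symbol begins with Snora, Snord or Snhg, together with Gas5, and they number 126 of 24421 rows. They comprise 36 Snora rows, 74 Snord rows and 16 host transcripts. Total RNA was sequenced from kidneys of wild-type mice taken at day 14 of a study of an oral silicon-based agent. The first group, UUO_Si, had a UUO operation (ureteral obstruction, a standard model of renal fibrosis) and a Si-based diet, with n = 6. The UUO group had the same operation and a normal diet, with n = 6. The sham group had a sham operation and a normal diet, with n = 3. None of the groups used here joined a sham operation with the Si-based diet, and the labels give neither the strain nor the age of the mice. The set was proposed because Snora23 was among the genes of smallest p between the diets, so every value of UUO_Si against UUO is given below as a description without a test.

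SnoRNAs are short, stable RNAs that work in the nucleolus as guides. Box H/ACA snoRNAs, named Snora, direct the conversion of uridine to pseudouridine, and box C/D snoRNAs, named Snord, direct ribose methylation, mostly in ribosomal RNA. In mammals most are cut out of introns of a host gene after splicing, and many hosts are ribosomal protein genes or noncoding Snhg genes, so that snoRNA and host are parts of a single primary transcript whose fates then diverge.

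The sequences of 4 H/ACA snoRNAs with deep falls and of 2 abundant C/D snoRNAs that did not pass the test are shown first, from GENCODE M21 transcripts on GRCm38, each 5′ to 3′ on its own strand. Snora23 lies at chr7:110046364-110046547 on the plus strand in an intron of Ipo7, Snora44 at chr4:132309941-132310069 on the plus strand in an intron of Snhg12, Snora81 at chr16:23110756-23110933 on the plus strand in an intron of Eif4a2 and Snora28 at chr12:111540941-111541067 on the plus strand in an intron of Eif5. Snord15b lies at chr7:99479563-99479707 on the minus strand in an intron of Rps3, and Snord17 at chr2:144265979-144266216 on the minus strand in an intron of Snx5. Capitals mark an ACA within the last 8 bases of the H/ACA snoRNAs, and in the C/D snoRNAs the C box, searched as NTGATGA in the first 15 bases, and the D box, searched as CTGA in the last 15 bases, all on the RNA's own strand.
Snora23: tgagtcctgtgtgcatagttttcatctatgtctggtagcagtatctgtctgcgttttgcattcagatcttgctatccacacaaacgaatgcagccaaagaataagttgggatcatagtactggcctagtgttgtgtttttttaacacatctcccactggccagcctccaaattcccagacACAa
Snora44: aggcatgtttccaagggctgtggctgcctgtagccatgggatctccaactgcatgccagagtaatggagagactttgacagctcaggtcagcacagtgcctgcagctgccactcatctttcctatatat
Snora81: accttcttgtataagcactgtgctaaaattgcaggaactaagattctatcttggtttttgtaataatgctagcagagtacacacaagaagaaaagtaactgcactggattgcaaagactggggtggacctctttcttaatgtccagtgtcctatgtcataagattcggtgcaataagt
Snora28: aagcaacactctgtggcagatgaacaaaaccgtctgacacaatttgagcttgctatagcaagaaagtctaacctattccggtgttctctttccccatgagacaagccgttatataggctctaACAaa
Snord15b: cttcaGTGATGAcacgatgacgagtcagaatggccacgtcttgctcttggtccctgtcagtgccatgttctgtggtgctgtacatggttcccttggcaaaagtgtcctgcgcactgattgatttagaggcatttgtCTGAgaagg
Snord17: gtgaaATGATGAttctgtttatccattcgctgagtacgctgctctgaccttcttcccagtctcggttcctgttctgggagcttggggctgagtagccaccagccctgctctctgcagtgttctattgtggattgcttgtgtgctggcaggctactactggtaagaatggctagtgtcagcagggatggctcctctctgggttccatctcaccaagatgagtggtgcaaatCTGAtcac
The ACA was found in 34 of 36 Snora members (94.4%) and in 6 of 73 Snord members with a sequence (8.22%), against 46.8% of the 1507 GENCODE genes of snoRNA type. Both the C and the D box were found in 44 of 73 Snord members (60.3%) and in 0 of 36 Snora members, against 20.1% of those genes. Snora44 and Snora81 are the 2 Snora members without an ACA in that window, which says only that these letters are absent from the annotated end.

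Library totals were 7.75 to 11.5 M counts in UUO_Si, 11.2 to 15.4 M in UUO and 5.53 to 8.31 M in sham (M, 1000000), so depth moved with the groups. Levels are in CPM, that is, per 1000000 counts after library sizes were scaled. The 4 libraries UUO_Si 6, UUO 5, UUO 6 and sham 3 stood apart, with counts in 791 to 1264 of 1463 olfactory and vomeronasal receptor genes, against 84 to 139 in the other libraries. Main results are therefore given with and without these 4 libraries. The sample names carry codes: UUO 5 and 6 carry another code series than UUO 1 to 4, UUO_Si 6 another than UUO_Si 1 to 5, and sham has a single series. No series holds 2 groups, so no comparison can be made within a series, and what the series stand for is not stated. UUO 5, UUO 6 and UUO_Si 6 are 3 of the 4 libraries that stood apart, so values without the 4 libraries hold a single series per group. Kidney identity was checked with tubule markers, which were present in all libraries: the summed level of 10 proximal tubule markers was 589 to 1733 CPM in UUO_Si, 747 to 1481 CPM in UUO and 13219 to 15909 CPM in sham. All 10 fell in both comparisons with sham, and all 7 fibroblast and matrix markers and all 7 macrophage markers rose. The share of counts on the ribosomal RNA transcript Rn45s was 2.13% to 4.45% in UUO_Si, 2.07% to 3.26% in UUO and 3.67% to 4.39% in sham. What part depth, cell make-up or Rn45s had in the results was not tested. In such whole-kidney samples fewer cells of a type and less RNA per cell cannot be told apart.

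SnoRNAs were lower in the obstructed kidneys: 20 of 24 tested H/ACA and 15 of 38 tested C/D snoRNAs fell in UUO against sham at an adjusted p of 0.05 (edgeR's quasi-likelihood test), where 26.4% of all genes tested fell. Without the 4 libraries that stood apart, 17 of 25 H/ACA and 12 of 39 C/D snoRNAs fell. The difference between the classes was not tested. The summed level of the 36 Snora rows was 142 to 232 CPM in UUO_Si and 117 to 163 CPM in UUO, against 314 to 400 CPM in sham, with no overlap. For the 74 Snord rows the sums were 575 to 861 CPM in UUO_Si and 474 to 645 CPM in UUO, against 754 to 881 CPM in sham, so that UUO lay below sham and UUO_Si overlapped it. The Snord sums of UUO 5 and UUO 6, 517 and 474 CPM, were below the 574 to 645 CPM of UUO 1 to 4. The 5 most abundant snoRNAs held 75.5% of the mean snoRNA CPM, which these sums follow.

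Low counts limit what can be said of single members. The filter kept 76 members (24 Snora, 38 Snord and 14 hosts) among 16752 genes tested. A gene could pass it on the strength of one group, so the tested members are not all members, and their counts below describe those with enough reads. Of the 50 others, 47 had at least 1 count and none more than 95 in all libraries together, and Snord14c, Snord14d and Snora35 had none. Near-identical copies such as Snord116l1 and Snord116l2 (100% identity) or Snord1b and Snord1c (97.4%) may share reads. The most abundant pair, Snord15a and Snord15b, was 64.5% identical. Reads of a host's unspliced transcript over a snoRNA are counted on the same row and cannot be told apart from the excised RNA.

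In UUO against sham, 38 tested members fell and 3 rose by the same test, in a background where 53.9% of all genes were called, 26.4% as lower and 27.5% as higher. Of the 62 tested snoRNAs 35 fell and 0 rose, and 59 had a log2 fold change below 0. None had an unadjusted p under 0.05 in the upward direction, and DESeq2 and limma-voom likewise called 0 as higher. Their median log2 fold change was -0.91, against -0.04 for all genes tested, of which 51.9% were below 0. All 6 UUO libraries lay below all 3 sham libraries for 32 of the 62, where 22.3% of all genes did so. Without the 4 libraries that stood apart, sham was left with sham 1 and sham 2, and 64 snoRNAs could be tested. Of these 29 fell and 2 rose (Snora2b and Snord98, both under the filter otherwise), with a median of -0.78 against 0.04 for all genes. In that fit 9354 genes were called, 47.6% of them as lower, against 49.0% of the called genes in the main fit. These are shares of called genes, so they cannot be set beside 29 of 64 tested. Snora2b and Snord98 had 88 and 95 counts over all libraries and were not tested in the main fit, so no rise is read from them.

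In UUO_Si against sham, 23 members fell and 4 rose, in a background of 52.7% called genes, 25.5% lower and 27.2% higher. Of the 62 snoRNAs 20 fell and 0 rose by edgeR's test, with 1 at an unadjusted p under 0.05 in the upward direction, 0 called higher by DESeq2 and 2 by limma-voom. Their median was -0.67, against -0.04 over all genes, and 21 had all 6 UUO_Si libraries below sham (background 21.8%). Without the 4 libraries, 18 of 64 fell and 5 rose (Snord98, Snord49b, Snord49a, Snora2b and Snord2), with a median of -0.52 against 0.03 for all genes. In that fit, with only sham 1 and sham 2, 9503 genes were called, 47.8% of them as lower. The share of called genes in the main fit was 48.4%, and neither share can be set beside 18 of 64 tested. Snord98 and Snora2b are again the low-count rows. This comparison uses the same sham libraries as UUO against sham, so the 2 sets of values are not independent.

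**Figure D1:**
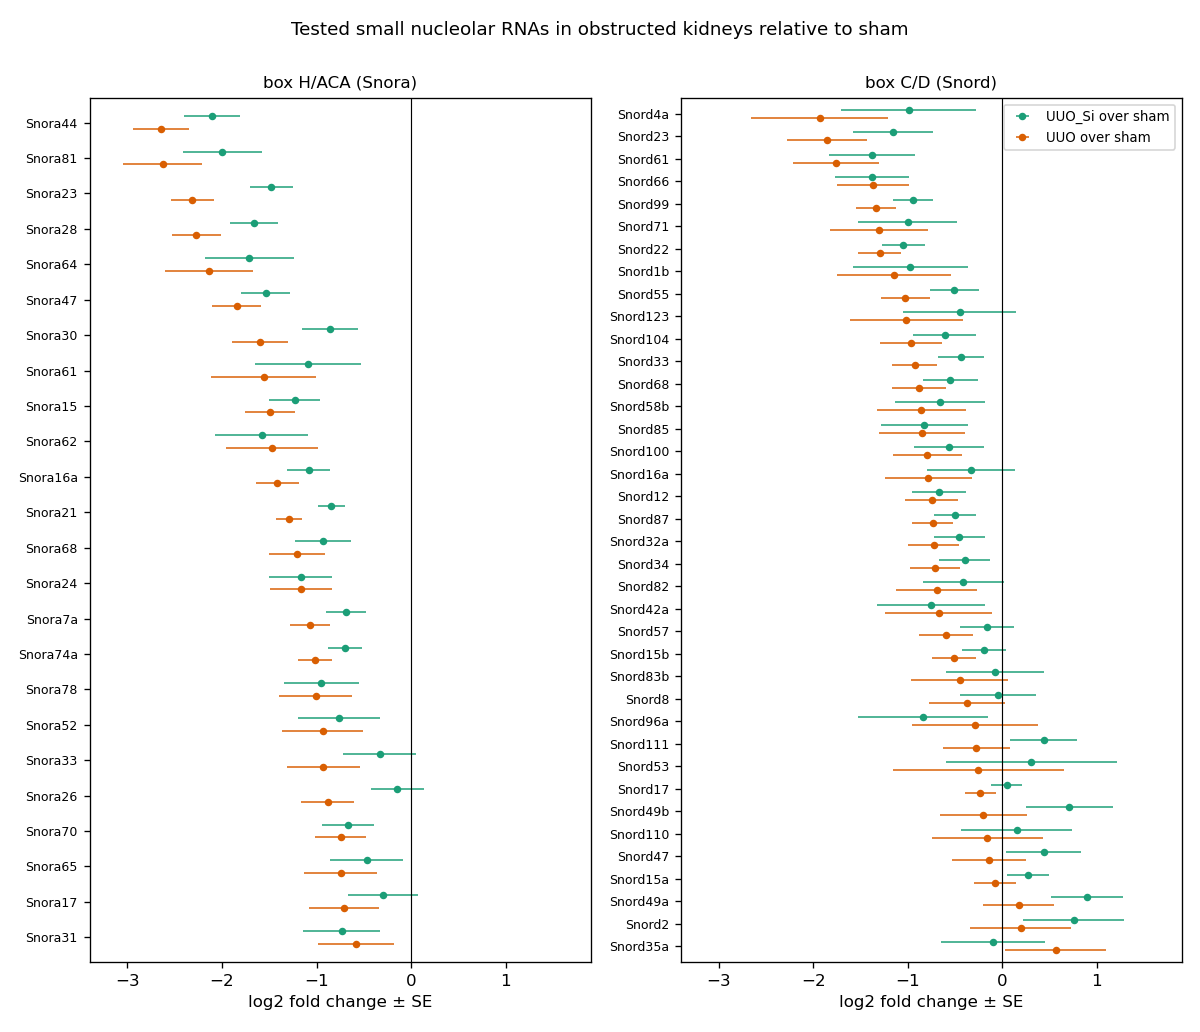
Log2 fold change with its standard error (x axis) for the 62 tested snoRNAs (rows), Snora on the left and Snord on the right, for UUO_Si over sham (green, upper point of each row) and UUO over sham (orange, lower point). All 24 Snora points of UUO over sham lie left of 0, as do 35 of the 38 Snord points.

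Of the 24 tested H/ACA snoRNAs 20 fell in UUO (83.3%, against 26.4% of all genes) and 15 in UUO_Si (62.5%, against 25.5% of all genes), with 0 rises in either, and all 24 had a log2 fold change below 0 in both comparisons. The medians were -1.25 in UUO and -0.94 in UUO_Si against sham. Without the 4 libraries that stood apart, 17 of 25 fell in UUO and 13 in UUO_Si, at medians of -1.12 and -0.73. The 1 rise in each was the low-count row Snora2b. Snora44, which in human cells guides a change in the small-subunit rRNA, had 1.92, 3.37 and 4.58 CPM in UUO_Si (lowest, median and highest library) and 1.52, 2.09 and 3.31 CPM in UUO, against 18.3, 9.75 and 14.6 CPM in the 3 sham libraries. Every obstructed library was below every sham library. It fell 6.25-fold in UUO (log2 fold change -2.64 ± 0.29 SE, adjusted p = 8.27e-07) and 4.30-fold in UUO_Si (-2.11 ± 0.29, adjusted p = 1.18e-05).

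Snora81, a guide to large-subunit rRNA in human cells, had 2.33, 7.56 and 16.1 CPM in UUO_Si and 2.60, 4.43 and 8.84 CPM in UUO, against 29.7, 22.9 and 43.2 CPM in sham. The groups did not overlap with sham, although the obstructed libraries spread widely. It fell 6.19-fold in UUO (-2.63 ± 0.42, adjusted p = 4.69e-05). Snora28, whose human counterpart acts on small-subunit rRNA, had 1.81, 2.73 and 3.08 CPM in UUO_Si and 1.20, 1.71 and 2.16 CPM in UUO, against 7.16, 10.2 and 7.01 CPM in sham. It fell 4.83-fold in UUO, again without overlap (-2.27 ± 0.25, adjusted p = 9.13e-07). Snora64, hosted by the ribosomal protein gene Rps2, had 0.666, 2.24 and 5.20 CPM in UUO_Si and 0.888, 2.07 and 2.25 CPM in UUO, against 6.02, 5.27 and 11.9 CPM in sham. It fell 4.40-fold in UUO (-2.14 ± 0.47, adjusted p = 0.000902), and the top UUO_Si library lay just under the lowest sham library.

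Snora47 and Snora30 were also among the 10 deepest falls of the snoRNAs. Snora47, in Zbed3, fell by 1.85 ± 0.26 on the log2 scale in UUO (adjusted p = 1.26e-05), and Snora30, in Srcap, fell by 1.60 ± 0.30 (adjusted p = 0.000208). Both were below sham in all 12 obstructed libraries.

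The abundant H/ACA snoRNAs fell as well. Snora21, a large-subunit guide in an intron of Rpl23, had 28.6, 37.4 and 46.6 CPM in UUO_Si and 22.8, 28.2 and 32.2 CPM in UUO, against 70.4, 58.2 and 73.9 CPM in sham. It fell 2.45-fold in UUO (-1.29 ± 0.14, adjusted p = 5.81e-07), and no obstructed library reached a sham library. Snora74a, hosted by Snhg4, had 52.0, 71.7 and 98.7 CPM in UUO_Si and 42.2, 63.7 and 70.6 CPM in UUO, against 137, 111 and 116 CPM in sham. It fell 2.02-fold in UUO, also without overlap (-1.02 ± 0.18, adjusted p = 0.000154). Of the remaining members above 5 CPM, Snora15 (-1.49 ± 0.27, adjusted p = 0.000139), Snora16a (-1.41 ± 0.23, adjusted p = 5.2e-05) and Snora7a (-1.07 ± 0.21, adjusted p = 0.000363) fell too. The 4 tested Snora members that did not pass in UUO were Snora52, Snora65, Snora17 and Snora31, at log2 fold changes of -0.94, -0.75, -0.71 and -0.59.

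**Figure D2:**
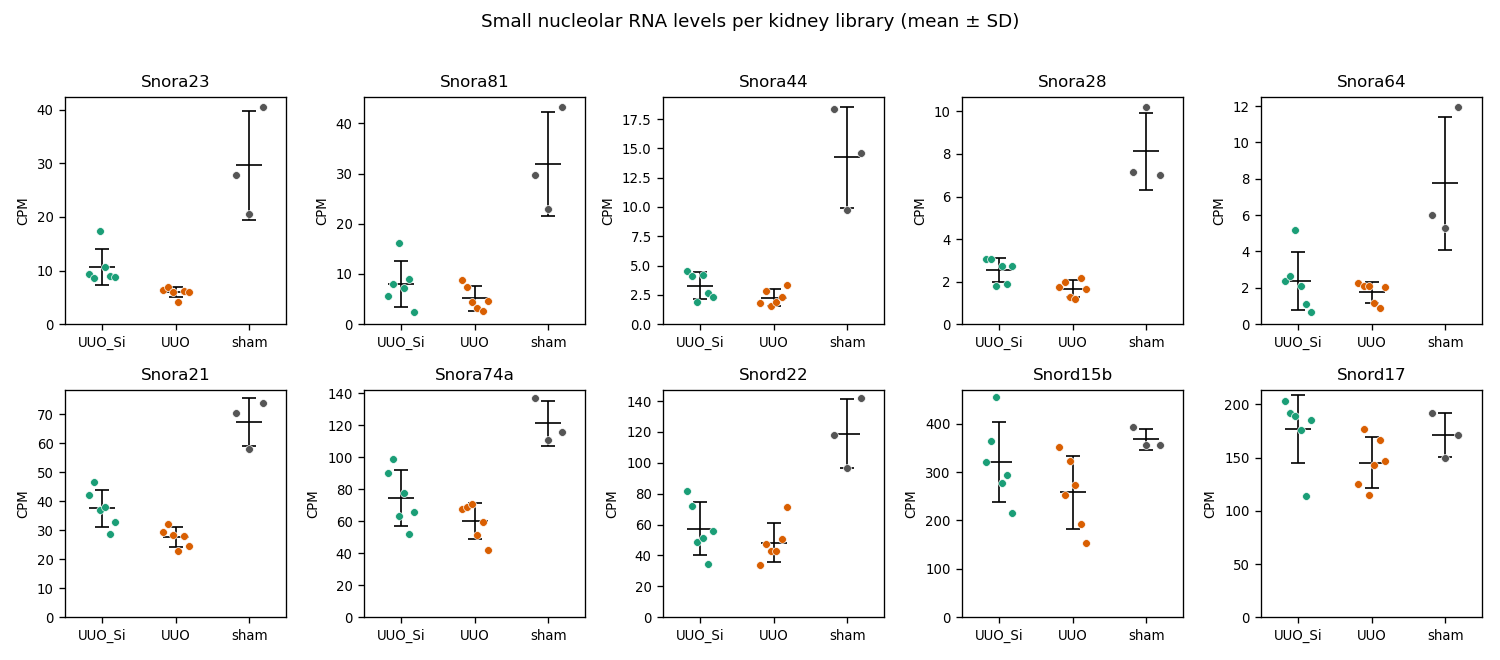
CPM per library (y axis, from 0) of 10 snoRNAs in UUO_Si, UUO and sham (x axis), with points for libraries and bars for the mean ± SD. Snora21 holds 22.8 to 46.6 CPM in obstructed kidneys and 58.2 to 73.9 CPM in sham, while Snord17 overlaps across the groups.

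Among the 38 tested C/D snoRNAs 15 fell in UUO, 39.5% against 26.4% of all genes. In UUO_Si 5 fell, 13.2% against 25.5% of all genes, so that this count lay below the background. In both comparisons 0 rose, and the medians were -0.45 in UUO_Si and -0.73 in UUO. Without the 4 libraries that stood apart, 12 of 39 fell and 1 (Snord98) rose in UUO, at a median of -0.67. In UUO_Si without them 5 fell and 4 rose (Snord98, Snord49b, Snord49a and Snord2), at a median of -0.23. Per kilobase of RNA, Snord15b had the highest level of the members at 2103 CPM per kilobase over all 15 libraries, followed by Snord17 at 685 and Snord22 at 524. How well the libraries keep RNAs of different lengths was not measured, so this order is one of counts and not of RNA amounts. Of Snord15b, Snord17 and Snord22 only Snord22 fell. Snord22, a C/D snoRNA without an established rRNA target and hosted by Snhg1, had 34.5, 53.8 and 82.0 CPM in UUO_Si and 33.8, 45.4 and 71.5 CPM in UUO, against 118, 96.9 and 142 CPM in sham. All obstructed libraries were below sham, and it fell 2.46-fold in UUO (-1.30 ± 0.23, adjusted p = 0.000132) and 2.07-fold in UUO_Si (-1.05 ± 0.23, adjusted p = 0.00105).

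Snord15b, a methylation guide for large-subunit rRNA, had 215, 308 and 454 CPM in UUO_Si and 153, 264 and 352 CPM in UUO, against 392, 355 and 355 CPM in sham. All 6 UUO libraries were below sham, 1 of them narrowly, and the difference of -0.51 ± 0.23 did not pass (adjusted p = 0.0700). It passed under 5 of 26 alternatives, without UUO 1 (adjusted p = 0.0257) and without UUO 3 (0.0472) among them. In the other 21 it did not pass, and without the 4 libraries that stood apart it was at -0.31 (adjusted p = 0.146). Its neighbour in the same host, Snord15a, had 44.8, 63.8 and 80.7 CPM in UUO_Si and 27.1, 48.0 and 64.6 CPM in UUO, against 52.4, 48.7 and 53.6 CPM in sham, and overlapped throughout (-0.08 ± 0.22, adjusted p = 0.786).

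Snord17, the longest member at 238 bases and also a large-subunit guide, had 114, 187 and 203 CPM in UUO_Si and 115, 145 and 176 CPM in UUO, against 192, 150 and 171 CPM in sham. The groups overlapped, and neither UUO (-0.23 ± 0.16, adjusted p = 0.238) nor UUO_Si (0.05 ± 0.16, adjusted p = 0.827) passed.

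Of the less abundant C/D snoRNAs, Snord23 in Nop53 (-1.86 ± 0.42, adjusted p = 0.00133) and Snord61 in Rbmx (-1.76 ± 0.46, adjusted p = 0.00357) fell in UUO with no overlap. Snord4a, in Rpl23a, had at most 1.19 CPM in an obstructed library and 0.430, 1.28 and 1.70 CPM in sham. The call of its fall of 1.93 ± 0.72 on the log2 scale (adjusted p = 0.0317) was lost without sham 2 (adjusted p = 0.129), without sham 3 (0.134), without UUO 5 (0.0563) and without the 4 libraries (0.176). It was also lost by limma-voom (adjusted p = 0.0930) and with no filter on low counts (0.0865). Snord99 in Snhg12 (-1.33 ± 0.21, adjusted p = 4.09e-05), Snord33 in Rpl13a (-0.93 ± 0.24, adjusted p = 0.00323) and Snord87 in Snhg6 (-0.74 ± 0.22, adjusted p = 0.00897) fell as well. The call of Snord87 was lost without sham 1 (adjusted p = 0.0598) or sham 3 (0.0549). Only 3 tested snoRNAs had a UUO value above 0, namely Snord35a (0.56 ± 0.53), Snord2 (0.20 ± 0.53) and Snord49a (0.17 ± 0.37), and none passed.

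Of the 14 tested host transcripts, 3 rose and 3 fell in UUO against sham and 8 did not pass, with a median of 0.08, and 4 rose and 3 fell in UUO_Si. The UUO shares, 21.4% in each direction, lay near those of all genes, 27.5% higher and 26.4% lower, so these counts are not a result about the hosts as a set. Snhg11, a noncoding host gene, had 14.2, 24.7 and 33.7 CPM in UUO_Si and 15.3, 22.2 and 32.3 CPM in UUO, against 197, 177 and 167 CPM in sham. No obstructed library came near sham, and it fell 7.93-fold in UUO (-2.99 ± 0.24, adjusted p = 2.16e-08) and 7.48-fold in UUO_Si (-2.90 ± 0.24, adjusted p = 3.83e-08), the deepest fall of any member tested. Snhg20 (-1.07 ± 0.28, adjusted p = 0.00394) and Snhg8 (-0.79 ± 0.18, adjusted p = 0.00153) fell in UUO, and both also fell in UUO_Si.

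Snhg5 had 6.25, 9.02 and 10.8 CPM in UUO_Si and 5.52, 9.16 and 11.9 CPM in UUO, against 3.30, 3.84 and 5.68 CPM in sham, with 1 UUO library inside the sham range. It rose 2.11-fold in UUO (1.08 ± 0.27, adjusted p = 0.00272). Snhg18 had 31.9, 37.5 and 45.0 CPM in UUO_Si and 33.4, 41.4 and 45.1 CPM in UUO, against 26.7, 21.4 and 26.3 CPM in sham. All 12 obstructed libraries were above sham, where 24.6% of all genes were so in UUO and 24% in UUO_Si, and it rose 1.62-fold in UUO (0.69 ± 0.14, adjusted p = 0.000419). Snhg1, the host of Snord22, rose 1.39-fold in UUO (0.47 ± 0.17, adjusted p = 0.0261), a call lost without sham 1 (adjusted p = 0.102), without sham 2 (0.146), without UUO 1 (0.0566) and when only UUO and sham were fitted (0.0544).

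Gas5, a host of many C/D snoRNAs that was named for its accumulation in growth-arrested cells, had 70.4, 84.2 and 92.4 CPM in UUO_Si and 57.5, 74.7 and 80.0 CPM in UUO, against 65.6, 57.4 and 73.1 CPM in sham. UUO overlapped sham and did not pass (0.13 ± 0.13, adjusted p = 0.412), and UUO_Si rose (0.35 ± 0.13, adjusted p = 0.0279). Without the 4 libraries Gas5 passed in UUO too (0.34, adjusted p = 0.0132). The other hosts that did not pass in UUO were Snhg6 (0.82 ± 0.39), Snhg7 (0.34 ± 0.46), Snhg3 (0.18 ± 0.30), Snhg4 (0.03 ± 0.18), Snhg17 (-0.02 ± 0.35), Snhg14 (-0.32 ± 0.57) and Snhg12 (-0.42 ± 0.20). The count of members that rose in UUO was 5 without sham 3 and 7 without the 4 libraries. In the latter fit Snhg7 and Gas5 joined the hosts, and the low-count rows Snora2b and Snord98 the snoRNAs. In UUO_Si the count was 10 without the 4 libraries, Snora2b and Snord98 included.

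**Figure D3:**
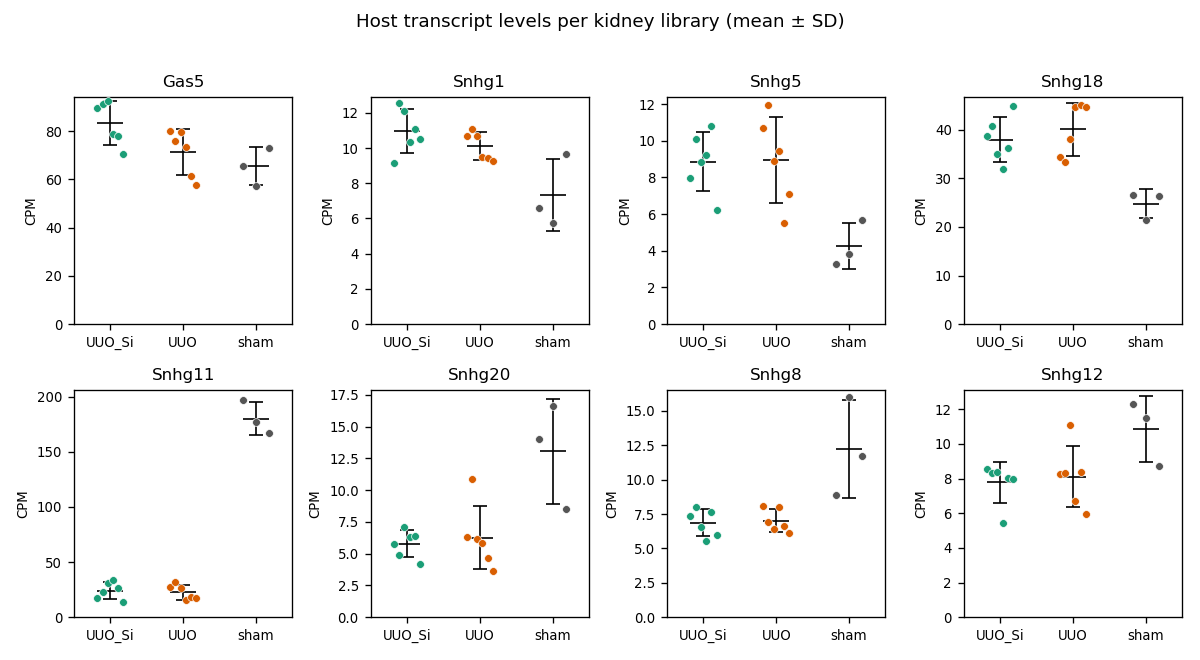
CPM per library (y axis, from 0) of Gas5 and 7 Snhg transcripts in UUO_Si, UUO and sham (x axis), with points for libraries and bars for the mean ± SD. Snhg11 holds 14.2 to 33.7 CPM in obstructed kidneys and 167 to 197 CPM in sham, whereas Snhg18 lies above sham in all 12.

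A host gene could be assigned to 107 snoRNAs, and 60 snoRNA and host pairs, on 48 different hosts, had both rows tested. In UUO against sham the snoRNA's log2 fold change was below that of its host in 58 of 60 pairs, with medians of -0.88 for the snoRNAs, 0.38 for the hosts and -1.28 for the difference. In UUO_Si it was below in 55 of 60. The snoRNA fell while its host rose in 10 pairs, fell with a host that did not pass in 17 and fell with a host that also fell in 6. Of the 48 hosts 20 rose and 7 fell, where 27.5% of all genes rose and 26.4% fell. Over the 60 pairs the Pearson correlation of snoRNA and host log2 fold changes in UUO was 0.43. As 59 of the 62 tested snoRNAs were below 0, most would also lie below a gene that did not change. Pairs on the same host are not independent, and no test was made over the pairs.

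In the 23 pairs hosted by ribosomal protein genes, all 23 snoRNAs were below their host. Of these 17 hosts 11 rose and 0 fell in UUO, where 27.5% of all genes rose and 26.4% fell. The host median over pairs was 0.77, while the median of their snoRNAs was -0.86. The other 37 pairs had a host median of -0.01 and a snoRNA median of -1.01. Members within a single host differed. In Eif4a2 (-0.19 ± 0.09), which encodes a translation initiation helicase, Snora81 was at -2.63 and Snord2 at 0.20, a member named here after its value was seen. In Snhg12 (-0.42 ± 0.20) the 4 tested members were Snora44 at -2.64, Snora61 at -1.56, Snora16a at -1.41 and Snord99 at -1.33, all of which fell although the host did not pass. In Rpl13a (0.92 ± 0.27), Snord33, Snord32a and Snord34 were at -0.93, -0.73 and -0.71 and fell, and Snord35a was at 0.56.

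**Figure D4:**
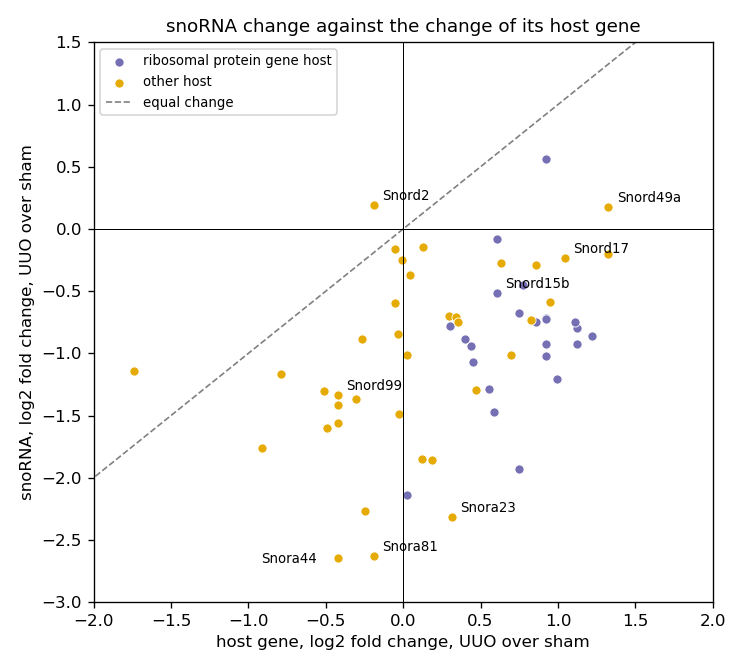
Log2 fold change of UUO over sham for 60 snoRNAs (y axis) against that of the host gene (x axis), in purple for ribosomal protein gene hosts and in yellow for other hosts, with a dashed line of equal change. In 58 pairs the point lies below the dashed line, and the exceptions are Snord2 and Snord1b.

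Snora23, by which the set was proposed, is 184 bases long and in human cells guides pseudouridine formation in large-subunit rRNA. Its host Ipo7 encodes an importin that carries ribosomal proteins and other cargo into the nucleus. Snora23 had 9.35, 8.63, 17.3, 10.6, 9.05 and 8.75 CPM in UUO_Si libraries 1 to 6 and 6.43, 6.85, 6.01, 4.18, 6.15 and 6.04 CPM in UUO libraries 1 to 6, against 27.8, 20.5 and 40.5 CPM in sham libraries 1 to 3. The 3 groups did not overlap. UUO lay lowest and sham highest, with UUO_Si between them and its library 3 well above its other 5. Snora23 was 4.97-fold lower in UUO (-2.31 ± 0.23) and 2.79-fold lower in UUO_Si (-1.48 ± 0.23) than in sham. Its UUO and UUO_Si levels entered its choice, so these differences are a description and no p is given for them. It is among the H/ACA snoRNAs counted above as fallen.

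Ipo7 averaged 141 ± 14.3 CPM in UUO_Si (SD, n = 6) and 132 ± 16.1 CPM in UUO (n = 6), against 106 ± 3.66 CPM in sham (n = 3). It rose in both comparisons with sham, by 0.41 in UUO_Si (adjusted p = 0.0049) and 0.31 ± 0.11 in UUO (adjusted p = 0.0228). The log2 ratio of Snora23 to Ipo7 within a library averaged -3.74 ± 0.40 in UUO_Si and -4.43 ± 0.28 in UUO, against -1.89 ± 0.53 in sham (SD). Compared with sham, the ratio differed by -1.86 in UUO_Si and by -2.55 in UUO, and by -2.19 in UUO without the 4 libraries. Since Snora23 alone already separated the groups and entered the choice of members, the ratio is a description and no p is given for it. An annotated gene on the opposite strand, 1600010M07Rik, spans Snora23 and reached at most 1.26 CPM in UUO_Si, 1.39 CPM in UUO and 0.568 CPM in sham, below every value of Snora23.

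**Figure D5:**
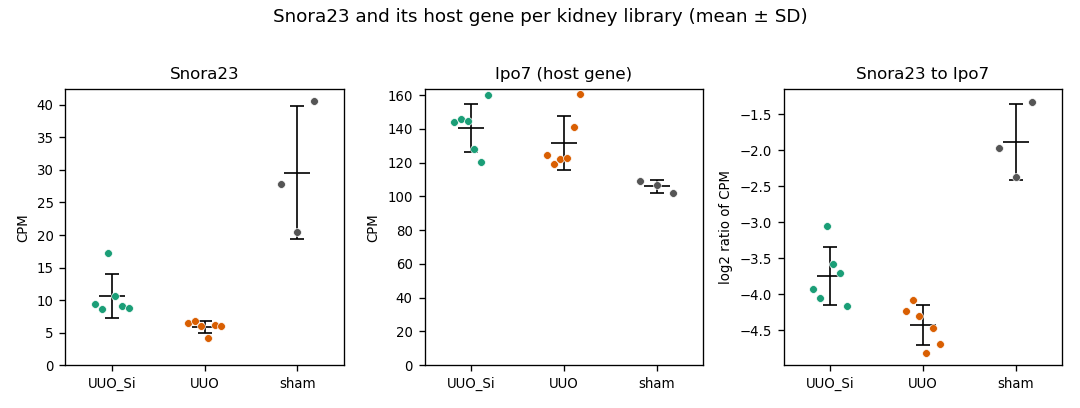
Snora23 CPM, Ipo7 CPM (both from 0) and the log2 ratio of the first to the second per library (y axes) in UUO_Si, UUO and sham (x axes), with points for libraries and bars for the mean ± SD. The ratio averages -3.74 in UUO_Si, -4.43 in UUO and -1.89 in sham, without overlap between obstructed and sham libraries.

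Between the diets, Snora23 was 1.78-fold higher in UUO_Si than in UUO (log2 difference 0.83 ± 0.20), and 0.64 without UUO_Si 3. Every UUO_Si library, from 8.63 CPM up, was above every UUO library, at most 6.85 CPM. No gene of the 16752 was called between the diets by edgeR's quasi-likelihood test, a background of 0%, with 626 at an unadjusted p under 0.05, 2 called by DESeq2 and 0 by limma-voom, and no member was called by any of the 3 tools. Of the 62 tested snoRNAs 55 had a value above 0, with a median of 0.33, while 8 of 14 hosts did, with a median of 0.04, and 50.3% of all genes, with a median of 0.00. The Snora and Snord medians were 0.35 and 0.33. Snora23 and Snord49a were the members with every UUO_Si library above every UUO library, where 0.107% of all genes were so. Since Snora23 was chosen by this contrast, its separation is not a result about the set.

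Snord49a had 2.59, 2.67, 2.49, 1.99, 1.88 and 1.83 CPM in UUO_Si and 1.61, 1.23, 1.78, 1.39, 1.46 and 0.662 CPM in UUO, against 0.860, 1.44 and 1.33 CPM in sham, so that UUO_Si was also above sham, without passing (0.89 ± 0.38, adjusted p = 0.0559). Other large differences between the diets were those of Snord4a (0.94 ± 0.61), Snord49b (0.91 ± 0.35), Snora30 (0.74 ± 0.25) and Snora26 (0.74 ± 0.23). The lowest were those of Snord35a (-0.66 ± 0.40) and Snord96a (-0.55 ± 0.54). These members were chosen by their values.

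Lists were drawn up for 89 tested genes. They held genes that build snoRNA particles and ribosomes, 12 genes of nonsense-mediated RNA decay and 9 other small structured RNAs. Of the 89, 13 rose (14.6%, against 27.5% of all genes) and 28 fell (31.5%, against 26.4%) in UUO against sham. The decay genes gave 4 of these falls, and the small structured RNAs gave 5 falls and 1 rise. With upper-quartile scaling 20 of the 89 rose and 26 fell. The share that fell is near the background, so it is not a result about these genes, and the difference from other genes was not tested. Of the 4 core box C/D proteins, Nhp2l1, the protein that first binds the box C/D motif, rose (0.79 ± 0.18, adjusted p = 0.00142), and Fbl, the methyltransferase fibrillarin, did not pass (0.10 ± 0.10, adjusted p = 0.410). None of the 4 box H/ACA proteins passed in UUO: Dkc1, the pseudouridine synthase, was at 0.28 ± 0.14, Gar1 at 0.46 ± 0.20, Nhp2 at 0.05 ± 0.20 and Nop10 at 0.03 ± 0.33. Among 11 assembly and trafficking factors Tcof1 rose (0.28 ± 0.09, adjusted p = 0.0105) and Pih1d1 fell (-0.31 ± 0.12, adjusted p = 0.0431).

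Of 17 RNA polymerase I genes 4 rose and 6 fell in UUO, where 27.5% of all genes rose and 26.4% fell. Myc, which drives ribosome synthesis, rose most (1.29 ± 0.15, adjusted p = 1.01e-06), and Taf1d, a subunit of the selectivity factor, fell most (-1.04 ± 0.28, adjusted p = 0.00438). Of 32 rRNA processing genes 6 rose and 12 fell against the same background. Npm1, the nucleolar protein nucleophosmin, was at 1.30 ± 0.14 (adjusted p = 5.65e-07) and Utp20, a small-subunit processome protein, at -0.95 ± 0.10 (adjusted p = 3.94e-07). Of 12 genes of nonsense-mediated RNA decay 4 fell and 0 rose, where 26.4% of all genes fell. Among the 4 were Smg6 (-0.72 ± 0.18, adjusted p = 0.00246) and Upf1 (-0.46 ± 0.11, adjusted p = 0.00168). In UUO_Si against sham all the lists together gave 15 rises and 27 falls among the 89 genes, where 27.2% of all genes rose and 25.5% fell. No list was tested against other genes.

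Of 9 other small structured RNAs tested, 5 fell and 1 rose in UUO, where 26.4% of all genes fell and 27.5% rose. Their median log2 fold change was -0.56. The list includes Scarna RNAs, which are guide RNAs like snoRNAs. Rpph1 and Vaultrc5, given below, also fell, so lower levels were not particular to snoRNAs. The difference from other genes was not tested. Rpph1, the RNA of ribonuclease P, averaged 7695 CPM in UUO_Si and 7095 CPM in UUO, against 13222 CPM in sham, and fell (-0.90 ± 0.17, adjusted p = 0.0002). Vaultrc5, a vault RNA, fell (-1.99 ± 0.47, adjusted p = 0.00175), as did Scarna13 (-1.11 ± 0.26, adjusted p = 0.00168), a guide RNA of the Cajal body. Scarna10 rose (1.20 ± 0.34, adjusted p = 0.0065), and Rmrp, the RNA of ribonuclease MRP, did not pass in UUO (0.24 ± 0.11, adjusted p = 0.0767).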

How the data were processed

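The authors deposited a table of expected counts, reads per gene symbol with fractions where a read matched several, for 15 kidney libraries; 79.0% to 83.0% of a library's values were whole. TopHat2 2.1.1, Cuffdiff 2.2.1 and mm10 are named, per the submitters' processing notes. Which tool made the counts, the gene annotation and the strand setting are not given in the sources used here. Libraries were made from total RNA with a SMARTer stranded Pico kit, per the labels' protocols, and how well it keeps RNAs as short as these was not measured.

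The expected counts were rounded, filtered with edgeR's filter at a minimum count of 10 (16752 genes of 24421) and scaled with TMM. A single model of 3 group means over all 15 libraries was fitted with edgeR 4.0.16 (robust quasi-likelihood test, R 4.3.3), and p-values were adjusted over all genes tested by the Benjamini-Hochberg method and called at 0.05. SE is the absolute log2 fold change over the square root of the F statistic. The log2 ratio of Snora23 to its host used a prior count of 2; its planned exact permutation test is not used, since the level of Snora23 entered the choice of members. Positions, hosts and sequences came from GENCODE M21 on GRCm38, the mm10 assembly. A host is the gene that spans the snoRNA, on the same strand where GENCODE gave it. Of the 126 members 123 matched a GENCODE gene. RefSeq's GRCm38.p6 table gave older symbols and 4 host spans, for which the strand was not checked. The steps were tested on simulated data.

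Members and lists were chosen with earlier results of these data known. Named with values were Snora23, every tested Snhg and Gas5, the 10 deepest falls among called snoRNAs (no snoRNA rose), and snoRNAs of at least 5 CPM on average. Of each list up to 4 genes of smallest p were to be named; a few more, such as Fbl and the H/ACA proteins, were named after their values were seen. Some genes that met these rules are not reported here. Alternatives were scaling by RLE or by the upper quartile, no filter, a minimum count of 30, removal of Rn45s and haemoglobin genes, DESeq2 1.42.0, limma-voom (limma 3.58.1), fits of 2 groups, a term for or removal of the 4 libraries that stood apart, each library left out, and a replicate block. Beyond group and replicate the labels do not describe the animals, and p-values reflect only how far these samples spread, which may be technical. Replicate numbers were not treated as pairs: over 12 pairs of libraries with the same number the correlations of their deviations from the group means ran from -0.39 to 0.75.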

Additional observations from a re-analysis of the deposited data

Results flagged for a closer look

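For the 37 named members and the ratio of Snora23 to Ipo7, 76 sets of 6 libraries were checked for a single library far from the other 5, and 9 were picked out, where chance picks about 1 in 20. Snora23 stood out in both obstructed groups: UUO_Si 3 had 17.3 CPM against 8.63 to 10.6 CPM in the other UUO_Si libraries, and UUO 4 had 4.18 CPM against 6.01 to 6.85 CPM in the other UUO libraries. UUO_Si 3 was also the highest UUO_Si library for Snora81 (16.1 CPM), Snora64 (5.20 CPM) and Snord15b (454 CPM), and its Rn45s share, 4.45%, was the highest of its group. Whether these are related was not tested.

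In UUO_Si 5, Snord17 had 114 CPM against 176 to 203 CPM in the others, and Snora15 had 2.51 CPM against 4.67 to 5.54 CPM. UUO_Si 5 had the fewest counts of its group, 7.75 M (M, 1000000). In UUO_Si 2, Snora16a had 8.42 CPM against 4.58 to 6.0 CPM and Snora7a had 7.71 CPM against 4.40 to 5.54 CPM. Snora7a stood out again in UUO 2, with 5.47 CPM against 3.64 to 4.23 CPM. Among the hosts, Snhg12 had 5.44 CPM in UUO_Si 4 against 8.0 to 8.55 CPM in the other UUO_Si libraries, and Snhg14 had 0.833 CPM in UUO_Si 6, a library that stood apart, against 2.88 to 4.08 CPM.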

How the results depend on the processing

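Of 957 values of the 37 named members under up to 26 alternatives, 908 kept their direction and call, 13 lost the call, 14 gained it and 22 changed sign, all of 4 members that did not pass. Snhg17 was at 0.043 with upper-quartile scaling, 0.024 with no filter, 0.081 by limma-voom, 0.32 without the 4 libraries that stood apart and 0.19 with the replicate block. Snhg14 was at 0.021 by limma-voom, 0.66 without the 4 libraries and 0.14 with the block, Snord15a at 0.037, 0.16 and 0.14 in the same settings, and Snhg4 at -0.021 with a minimum count of 30. Leaving out single libraries gave -0.17 to 0.10 for Snhg17, -0.64 to 0.27 for Snhg14, -0.20 to 0.049 for Snord15a and -0.036 to 0.099 for Snhg4. The median of the tested snoRNAs in UUO against sham ran from -1.07 to -0.81 over these settings and that of all genes from -0.20 (no filter) to 0.04. Leaving out each library in turn gave 27 to 39 members lower and 2 to 5 higher in UUO, 19 to 26 lower and 3 to 6 higher in UUO_Si, and 21 to 32 pathway genes lower and 11 to 14 higher in UUO. Snora23 between the diets ran from 0.64 to 0.89, and its ratio to Ipo7 from -2.79 to -2.26 in UUO and from -2.10 to -1.57 in UUO_Si. Members higher in UUO numbered 5 without a filter and 7 without the 4 libraries that stood apart, where the ratio of Snora23 to Ipo7 was -2.19. Members higher in UUO_Si numbered 7 by limma-voom and 10 without the 4 libraries, and pathway genes higher in UUO numbered 20 by upper-quartile scaling; the cause was not tested. With the replicate block, which the pairing check did not call for, 26 members and 23 snoRNAs were lower in UUO, 17 members were lower in UUO_Si, Snora23 between the diets was 0.80, and Snord4a had an adjusted p of 0.115. Low counts limit most of the 50 untested members, and 3 sham libraries limit every comparison with sham.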
